A study of Mus musculus with 3 samples.

Results

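The SLC25 family is the set of nuclear-encoded carriers that move metabolites across the inner mitochondrial membrane, and its transcripts were examined in untreated mouse cortical neurons. Members were all protein-coding genes whose mouse symbol is Slc25a followed by a number, with 1 gene symbol left out by the rule. GENCODE release M21 lists 46 such genes. Of these, 45 had a protein-coding row among the 18121 protein-coding genes of the deposited table, and Slc25a54 was not analysed here. A member's level is the TPM of its longest protein-coding transcript row, a share of reads scaled for transcript length. Comparison between genes is limited where the rows of a gene disagree, and the highest row moved 18 of 45 levels by more than the SD.

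The data were 3 RNA-seq libraries of 1 group: wild-type (WT) neurons dissociated from the cortex of embryonic day 16 Swiss-Webster mice, an outbred stock, grown in neurobasal medium with B27, with no treatment given on the labels. The growth text of the series also describes etoposide, a poison of type II topoisomerases, but no library here is labelled as having received it. The series maps the topoisomerase TOP2B in neurons, and these libraries describe the expression of the cells it was mapped in. Values are given per library or as mean ± SD (n = 3), and no label states whether each library had its own culture. An SD therefore measures only how far the libraries lie apart, and that spread may be technical. A p-value here rests on the same libraries and reflects mainly whether their differences agree in sign.

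Most SLC25 proteins are built from repeats of paired membrane helices and work as exchangers, binding a substrate on one side of the membrane and releasing it on the other. They feed ADP and phosphate to the ATP synthase, carry reducing equivalents and amino acids for the malate-aspartate shuttle, and bring in the nucleotides, iron and cofactors that the matrix cannot make. In neurons the ADP/ATP carriers, the aspartate/glutamate carrier aralar and the glutamate carriers are known for their link to ATP supply and to glutamate metabolism. The family also holds a peroxisomal carrier and a protein of the outer membrane.

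The promoters of 4 carriers are shown first, because they belong to the 2 pairs of close relatives that stood farthest apart in these neurons: the aspartate/glutamate carriers Slc25a12 (chr2:71367706-71368005, minus strand) and Slc25a13 (chr6:6217124-6217423, minus strand), and the calcium-regulated ATP-Mg/phosphate carriers Slc25a23 (chr17:57059814-57060113, minus strand) and Slc25a24 (chr3:109122899-109123198, plus strand). Each is the RefSeq window of 250 bases before to 50 bases after the start of the gene on the build GRCm38.p6, written 5′ to 3′ on the strand of the gene. Capitals mark every CpG dinucleotide.
Slc25a12: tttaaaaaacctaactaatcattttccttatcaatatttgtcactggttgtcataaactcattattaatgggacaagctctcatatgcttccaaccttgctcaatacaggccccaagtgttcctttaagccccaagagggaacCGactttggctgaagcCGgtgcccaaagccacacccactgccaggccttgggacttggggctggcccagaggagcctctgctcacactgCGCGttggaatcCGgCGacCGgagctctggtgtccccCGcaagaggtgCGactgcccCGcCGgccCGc
Slc25a13: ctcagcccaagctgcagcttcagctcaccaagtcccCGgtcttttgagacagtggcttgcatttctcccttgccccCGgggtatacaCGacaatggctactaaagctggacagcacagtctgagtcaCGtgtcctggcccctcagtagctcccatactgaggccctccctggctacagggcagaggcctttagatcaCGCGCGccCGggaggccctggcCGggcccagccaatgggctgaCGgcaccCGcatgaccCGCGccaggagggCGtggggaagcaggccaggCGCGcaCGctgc
Slc25a23: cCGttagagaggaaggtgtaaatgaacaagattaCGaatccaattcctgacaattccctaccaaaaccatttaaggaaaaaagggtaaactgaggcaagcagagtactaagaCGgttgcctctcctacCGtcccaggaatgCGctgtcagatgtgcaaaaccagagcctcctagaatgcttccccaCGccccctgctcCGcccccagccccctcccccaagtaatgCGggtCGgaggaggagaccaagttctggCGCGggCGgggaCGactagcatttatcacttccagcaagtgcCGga
Slc25a24: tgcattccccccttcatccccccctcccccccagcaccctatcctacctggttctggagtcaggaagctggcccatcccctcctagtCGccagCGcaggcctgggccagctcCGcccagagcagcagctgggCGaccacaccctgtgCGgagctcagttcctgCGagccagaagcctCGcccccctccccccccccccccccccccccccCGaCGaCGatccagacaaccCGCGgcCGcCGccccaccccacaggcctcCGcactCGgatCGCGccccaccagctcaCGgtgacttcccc
The windows hold 12 CpG in Slc25a12, 17 in Slc25a13, 14 in Slc25a23 and 19 in Slc25a24. The 4 genes were chosen for their levels. Over the 34 carriers with a window the median was 24 CpG in detected and 11 in undetected ones. Over all protein-coding genes with a window it was 22 in detected and 6 in undetected ones.

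Of the 45 carriers, 33 were detected, meaning a mean of 1 TPM or more, which is 73.3% of them against 61.5% of all protein-coding genes. At 10 TPM or more stood 18 carriers, 40% of the family against a background of 26.4%. The 4 carriers at 50 TPM or more made up 8.89% of the family, against 4.71% of all protein-coding genes: the ADP/ATP carriers Slc25a4 and Slc25a5, the phosphate carrier Slc25a3 and the ATP-Mg/phosphate carrier Slc25a23. Below them 14 carriers lay between 10 and 50 TPM, 15 between 1 and 10 TPM, and 12 below 1 TPM.

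The median of the family was 2.66 ± 0.071 on the log2(TPM + 1) scale, a level of 5.34 TPM, beside 1.94 and 2.84 TPM over all protein-coding genes. The 85 subunits of the respiratory chain and ATP synthase, the machinery these carriers supply, had a median of 5.80 and 54.6 TPM, and 79 of them were detected. The 76 mitochondrial ribosomal proteins had a median of 3.72 and 12.2 TPM, with 75 detected. These medians are descriptions with no test. The carriers spread over a wider range than the mitochondrial ribosomal proteins, with quartiles at 0.546 and 17.4 TPM against 7.83 and 18.5 TPM.

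**Figure D1:**
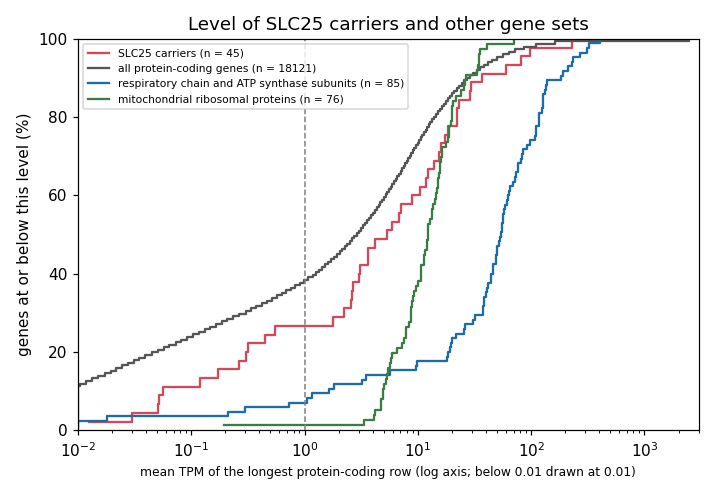
Cumulative share of genes (vertical axis, percent) at or below a mean TPM (horizontal log axis) for the 45 carriers, all 18121 protein-coding genes, 85 respiratory chain and ATP synthase subunits and 76 mitochondrial ribosomal proteins, with the 1 TPM limit dashed. The carrier curve lies near that of all genes at high levels and keeps a step of 12 genes below 1 TPM, which only 1 mitochondrial ribosomal protein and 6 respiratory subunits share.

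The labelled cell type was checked against marker genes. All 8 neuronal markers were detected, with summed levels of 2420, 2459 and 2227 TPM in libraries 1, 2 and 3. Astrocyte markers were detected in 7 of 8 cases and summed to 392, 411 and 467 TPM, and oligodendrocyte lineage markers in 6 of 7 cases, with sums of 66.1, 49.7 and 83.0 TPM. Microglial sums ranged from 0.955 to 1.77 TPM with Tmem119 at 0, and endothelial and mural sums from 1.87 to 2.27 TPM with Cldn5 at 0. In such bulk RNA, fewer cells of a type and less RNA per cell cannot be told apart, so a carrier's level is that of the mixed culture. Markers of dividing cells were detected in 4 of 5 cases and summed to 10.2, 7.86 and 10.2 TPM, with Top2a at 4.13 ± 0.516 TPM.

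Carriers of adenine nucleotides and phosphate led the family. Their 8 members summed to 479 ± 29.9 TPM, 59.0% ± 0.278 of the summed level of all 45 carriers, although 3 of the 8 were not detected. Slc25a4 alone, the ADP/ATP carrier ANT1 that exports ATP from the matrix in exchange for ADP and is typical of heart, muscle and brain, held 28.1% ± 0.648. Slc25a4, Slc25a3 and Slc25a5 together held 50.3% ± 0.632. Of the family's first 10 members 4 had this role, and the other 6 were carriers of amino acids, of di- and tricarboxylates and of glutathione and an outer membrane protein. Shares by role were computed on the longest row only. They can differ on other gene values: with summed rows Slc25a3 stood at 922 TPM and the amino acid carrier Slc25a22 at 767 TPM.

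Slc25a4 (chromosome 8, 46206797 to 46211284, minus strand, 4 exons) stood at 242, 236 and 208 TPM in libraries 1, 2 and 3, or 229 ± 18.4 TPM. It was the highest carrier in each library and rank 79 of all protein-coding genes. Slc25a5 (chromosome X, 36795651 to 36798807, plus strand), the ADP/ATP carrier ANT2 that is common in growing cells, stood at 86.5, 83.8 and 74.6 TPM, or 81.6 ± 6.23 TPM. Both were highest in library 1 and lowest in library 3, and their levels did not overlap. The difference of Slc25a5 from Slc25a4 was -1.47 ± 0.0092 on the log2(TPM + 1) scale, with Slc25a4 2.80-fold higher and above Slc25a5 in 3 of 3 libraries. Of the 50-base words of the Slc25a5 transcript only 53.4% occur at no other annotated locus, and its 9 other loci are all pseudogenes, so its level is uncertain. Divided by that share, as if no read of a shared word had been counted, Slc25a5 would stand at 152.8 TPM, still below Slc25a4.

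The third ADP/ATP carrier, Slc25a31, which is known from testis, was not detected, at 0.0600, 0.0285 and 0.0674 TPM. Slc25a3 (chromosome 10, 91116574 to 91124059, minus strand) encodes the phosphate carrier that brings in phosphate for ATP synthesis. It stood at 101, 101 and 93.7 TPM, or 98.5 ± 4.14 TPM, lowest in library 3. Its level depended on the transcript row: a processed transcript of 507 bases reached 179, 189.7 and 189.6 TPM. On either row it was the second carrier of the family.

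The remaining members of this role exchange ATP-Mg for phosphate, and thereby set the adenine nucleotide content of the matrix. Slc25a23, Slc25a24 and Slc25a25 carry a calcium-binding domain on the outer face of the inner membrane. Slc25a23 (chromosome 17, 57043711 to 57059863, minus strand) stood at 61.6, 58.4 and 58.4 TPM, or 59.5 ± 1.85 TPM. Slc25a25 followed at 10.3, 11.0 and 10.3 TPM. Slc25a24 (chromosome 3, 109123149 to 109168457, plus strand) stood at 0.262, 0.344 and 0.345 TPM, from 46, 51 and 54 reads, and was not detected. The 3 relatives kept this order without overlap in each library. Slc25a23 exceeded Slc25a24 by 5.52 ± 0.097 on the log2(TPM + 1) scale, a 188-fold ratio of mean TPM, and Slc25a25 by 2.39 ± 0.079, a 5.65-fold ratio. Slc25a41, a relative without the calcium-binding domain, stood at 0.173 ± 0.0299 TPM, from 8 to 13 reads a library.

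**Figure D2:**
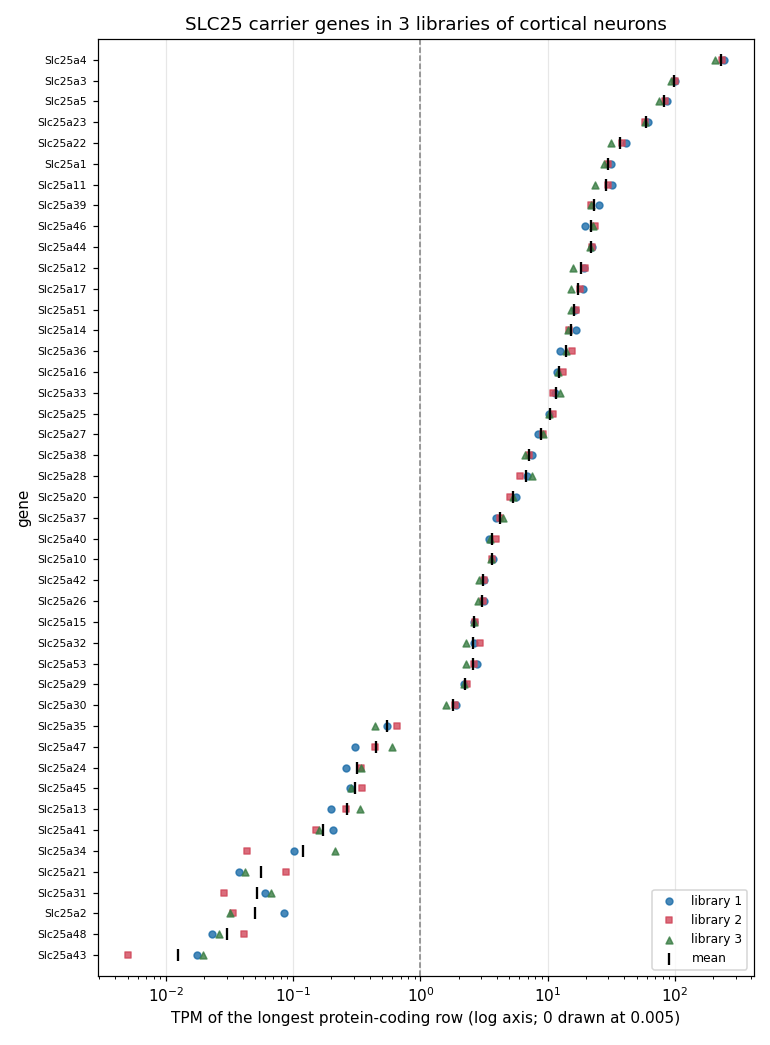
TPM of the longest protein-coding row (horizontal log axis, with 0 drawn at 0.005) of 44 carriers in libraries 1, 2 and 3, ordered by the mean, which is marked by a bar. Slc25a4 leads at 229 TPM, a gap separates Slc25a30 at 1.80 TPM from Slc25a35 at 0.546 TPM, and the widest spreads lie among the 12 carriers below the dashed 1 TPM line.

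Among the amino acid carriers 6 of 8 were detected, and they held 11.0% of the family's summed level. Slc25a22 (chromosome 7, 141429744 to 141437892, minus strand), the mitochondrial glutamate carrier GC1, was the highest at 41.3, 38.2 and 31.4 TPM, or 37.0 ± 5.05 TPM. It was highest in library 1 and lowest in library 3. Its highest row, a coding fragment of 170 bases, stood at 81.6, 83.5 and 58.3 TPM, which would make it the fourth carrier in place of the fifth. Loss of SLC25A22 function in people is known to cause an early epileptic encephalopathy.

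Slc25a12 (chromosome 2, 71271063 to 71367749, minus strand, 18 exons) encodes aralar, the aspartate/glutamate carrier of brain and muscle that is stimulated by calcium and works in the malate-aspartate shuttle. It stood at 19.2, 19.7 and 15.9 TPM, or 18.3 ± 2.05 TPM. Slc25a13 (chromosome 6, 6041219 to 6217173, minus strand, 18 exons) encodes citrin, its liver counterpart in the urea cycle. It stood at 0.200, 0.259 and 0.337 TPM, from 32, 35 and 48 reads, below the detection limit. The relatives did not overlap, and they ran in opposite order in library 3, where Slc25a12 was lowest and Slc25a13 highest. In 3 of 3 libraries Slc25a12 exceeded Slc25a13, by 3.92 ± 0.23 on the log2(TPM + 1) scale, with a 68.9-fold ratio of mean TPM.

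The longest row of Slc25a12 stood below shorter ones. Its row of 6351 bases contains the bases of a nested row of 2392 bases, annotated as a target of nonsense-mediated decay, which held 5605, 4720 and 4129 reads, a mean of 2014 reads per kb. The other 3959 bases, 3627 of them in the last exon, held 632, 698 and 494 reads, or 154 reads per kb. Read density was thus low over the added bases, and reads in the shared bases cannot be assigned to either row. A processed transcript of 994 bases reached 47.9, 46.4 and 41.6 TPM. On the highest row Slc25a12 was the seventh carrier and on the longest row the eleventh. For Slc25a13 the highest row, a retained intron of 616 bases, stood at 0.345, 0.386 and 0.559 TPM, still below 1 TPM.

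The other amino acid carriers were lower, apart from Slc25a44, the branched-chain amino acid carrier, at 22.0 ± 0.486 TPM. Slc25a38, the glycine carrier of haem synthesis, stood at 7.10 ± 0.470 TPM, and Slc25a29, which takes basic amino acids, at 2.24 ± 0.0605 TPM. The ornithine carrier of the urea cycle, Slc25a15, stood at 2.65, 2.71 and 2.62 TPM, with the narrowest spread of any detected carrier (coefficient of variation 1.68%). Its relative Slc25a2, a gene of 1 exon, was close to the limit of counting at 0.0855, 0.0338 and 0.0320 TPM, from 6, 2 and 2 reads. Slc25a15 exceeded Slc25a2 by 1.80 ± 0.047 on the log2(TPM + 1) scale, a 52.7-fold ratio of mean TPM. So near the floor the size depends on the constant added to the TPM: with 0.1 in place of 1 it was 4.22 ± 0.28.

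Carriers of di- and tricarboxylates link the citric acid cycle to the cytosol, and 3 of 4 were detected. Slc25a1 (chromosome 16, 17925211 to 17928219, minus strand), the citrate carrier that exports citrate for lipid synthesis, stood at 31.8, 29.8 and 27.6 TPM, and its highest row, of 689 bases, at 57.3, 55.3 and 51.2 TPM. Slc25a11 (chromosome 11, 70644196 to 70647058, minus strand), the oxoglutarate carrier and second carrier of the malate-aspartate shuttle, stood at 32.3, 29.7 and 23.7 TPM. It had the widest spread of any detected carrier (coefficient of variation 15.3%), with library 3 the lowest. Slc25a10, the dicarboxylate carrier that exchanges malate or succinate for phosphate, stood at 3.71, 3.62 and 3.56 TPM. Slc25a11 exceeded it by 2.66 ± 0.20 on the log2(TPM + 1) scale, a 7.86-fold ratio. Slc25a21, the oxodicarboxylate carrier, was not detected, at 0.0560 ± 0.0284 TPM from 5 to 10 reads.

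The 4 enzymes of the malate-aspartate shuttle were all detected beside its carriers. Mdh1 stood at 153 ± 19.7 TPM, Mdh2 at 117 ± 13.1, Got1 at 38.9 ± 5.11 and Got2 at 27.7 ± 2.80 TPM. Their sum was 364, 357 and 291 TPM in libraries 1, 2 and 3, so it was lowest in library 3, as Slc25a12 and Slc25a11 were. That order was common: library 3 was also lowest for 40.8% of all detected protein-coding genes and for 60.6% of detected carriers.

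All 10 carriers of cofactors, vitamins and nucleotides were detected, and with 91.5 ± 3.30 TPM they held 11.3% of the family's sum. Slc25a17, the peroxisomal carrier of the family, stood at 17.4 ± 1.96 TPM, and Slc25a51, the NAD carrier, at 16.1 ± 0.871 TPM. The pyrimidine nucleotide carriers lay close together, Slc25a36 at 12.5, 15.5 and 13.9 TPM and Slc25a33 at 11.5, 11.1 and 12.5 TPM. Their ranges overlapped, and the difference of 0.23 ± 0.19 on the log2(TPM + 1) scale, although above 0 in 3 of 3 libraries, was of the size of its spread. Without library 2 it was 0.12. It was larger under other gene values, 0.51 ± 0.19 on the highest row and 2.04 ± 0.13 with summed rows, so their closeness holds for the longest row, the single row of Slc25a33. Of the 50-base words of Slc25a36, 88.2% occur at no other locus, the rest being shared with a pseudogene, so its level is uncertain too, and divided by the unique shares the difference was 0.40 ± 0.19.

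Slc25a16 and Slc25a42, both linked to coenzyme A, stood at 11.9, 13.3 and 11.97 TPM and at 3.19, 3.17 and 2.91 TPM. They did not overlap, and Slc25a16 exceeded Slc25a42 by 1.71 ± 0.081 on the log2(TPM + 1) scale, a 4.01-fold ratio. Slc25a20, the carnitine/acylcarnitine carrier of fatty acid oxidation, stood at 5.34 ± 0.313 TPM. The S-adenosylmethionine carrier Slc25a26 stood at 3.03 ± 0.189 TPM and the folate and FAD carrier Slc25a32 at 2.61 ± 0.320 TPM.

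All 4 iron and glutathione carriers were detected, with a sum of 37.7 ± 1.69 TPM. Slc25a39, a glutathione carrier of the inner membrane, stood at 25.3, 21.9 and 21.9 TPM and its relative Slc25a40 at 3.44, 3.96 and 3.53 TPM. Slc25a39 exceeded Slc25a40 by 2.37 ± 0.18 on the log2(TPM + 1) scale, a 6.33-fold ratio without overlap. Slc25a40 shares words with a pseudogene, and 89.7% of its words occur at no other locus. The mitoferrins bring iron to haem and iron-sulphur cluster synthesis, Slc25a37 mainly in red cell precursors and Slc25a28 more widely. Slc25a28 stood at 6.84, 6.07 and 7.56 TPM and Slc25a37 at 3.90, 4.25 and 4.46 TPM. Slc25a28 was higher in 3 of 3 libraries, by 0.59 ± 0.14 on the log2(TPM + 1) scale. With all rows of each gene summed, 1 for Slc25a28 and 4 for Slc25a37, the difference was -0.89, so the direction rests on how the gene value is taken.

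The uncoupling protein homologues, Slc25a14 (UCP5) and Slc25a27 (UCP4) of brain and Slc25a30, were all detected, with a sum of 26.0 ± 0.818 TPM. Slc25a14 stood at 16.6, 14.7 and 14.4 TPM, Slc25a27 at 8.37, 9.20 and 9.21 TPM, and Slc25a30 at 1.92, 1.87 and 1.60 TPM. The 3 genes kept this order in each library without overlap. Slc25a14 exceeded Slc25a27 by 0.71 ± 0.17 and Slc25a30 by 2.54 ± 0.074 on the log2(TPM + 1) scale. The uncoupling proteins proper, which are family members under other symbols, were not detected: Ucp1, of brown fat, stood at 0.0430 ± 0.0132 TPM, Ucp2 at 0.143 ± 0.0288 and Ucp3 at 0.0210 ± 0.0114 TPM.

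In the last group, a protein of the outer membrane and genes given no substrate group here, 2 of 8 were detected. Slc25a46, an outer membrane protein with a role in mitochondrial dynamics, stood at 22.1 ± 2.04 TPM and was lowest in library 1, and Slc25a53 stood at 2.58 ± 0.264 TPM. The relatives Slc25a35 and Slc25a34 stood at 0.546, 0.653 and 0.438 TPM and at 0.102, 0.0433 and 0.213 TPM, neither of them detected. They differed by 0.47 ± 0.21 on the log2(TPM + 1) scale, and by 1.62 ± 0.81 with 0.1 added in place of 1. Slc25a35 shares 1151 exonic bases, 31.6% of its row, with Rangrf on the other strand, whose highest row stood at 0.597 TPM. The strand setting of the counting is not given in the sources used here. Gm17168 and Gm13068, which share 142 exonic bases with Slc25a23 and 281 with Slc25a33 on the other strand, stood at 0 TPM. Lrig1, which shares 144 with Slc25a26, stood at 5.04 TPM. Whether reads of Slc25a35 and Rangrf were kept apart was not tested. Slc25a47, known from liver, stood at 0.448 ± 0.144 TPM, Slc25a45 at 0.304 ± 0.0378 and Slc25a48 at 0.0301 ± 0.00968 TPM. Slc25a43 was the lowest carrier, with 1 read each in libraries 1 and 3 and 0 in library 2, where 0 reads allow a level of up to 0.0625 TPM (the value of 3 reads, for counting error only).

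Differences within the pairs of relatives were compared in 13 pairs. In 12 pairs the first named gene was higher in 3 of 3 libraries, and in the remaining pair, Slc25a5 against Slc25a4, it was lower in all 3. Each pair had p = 0.25 in an exact permutation test over libraries that flips the signs of the differences (two-sided), and 0.25 after Benjamini-Hochberg adjustment over the 13 pairs, the smallest value that 3 libraries allow. The differences are therefore described by their size beside their SD, a spread that may be technical. That of Slc25a36 and Slc25a33 came near its SD. The difference of Slc25a35 and Slc25a34, neither of them detected, was 0.47 ± 0.21. A small SD did not fix the direction: that of Slc25a28 and Slc25a37, 0.59 ± 0.14, was -0.89 with summed rows.

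**Figure D3:**
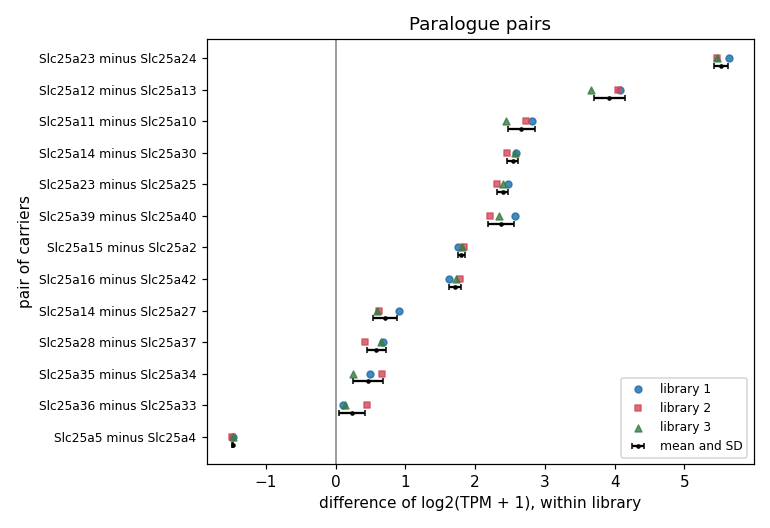
Difference of log2(TPM + 1) between the 2 genes of each of the 13 pairs (horizontal axis), by library and as mean with SD (n = 3), ordered by size. It runs from 5.52 for Slc25a23 minus Slc25a24 to -1.47 for Slc25a5 minus Slc25a4, and all points of a pair lie on the same side of 0.

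Library 3 held the lowest level of 20 of the 33 detected carriers, 60.6%, against 40.8% of all detected protein-coding genes. The lowest level fell in library 1 for 7 carriers and in library 2 for 6. The summed level of the family was 847, 831 and 758 TPM. Library 3 also had the lowest sum of neuronal markers and the highest sums of astrocyte and oligodendrocyte lineage markers, and the part of that shift in the carriers' levels was not tested. The spread itself was small: the median coefficient of variation was 6.73% over detected carriers and 7.88% over all detected protein-coding genes.

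The rows deposited for a carrier shared reads and often disagreed in level. The 45 carriers had 205 rows, from 1 row in 14 carriers to 18 rows in Slc25a22. The longest coding row was also the highest in 23 carriers, which include the 14 with 1 row, where it could not be otherwise. In 6, among them Slc25a3, Slc25a22, Slc25a1, Slc25a12 and Slc25a13, the highest row was at least 1.5 times the longest coding one. Neither count was made over all protein-coding genes. The highest row left the number of detected carriers at 33, and the first 3 of the family were the same genes in the same order. With all rows of a gene summed, so that shared reads count repeatedly, 35 were detected and the order was Slc25a3 at 922, Slc25a22 at 767 and Slc25a4 at 429 TPM, with Slc25a5 the seventh.

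**Figure D4:**
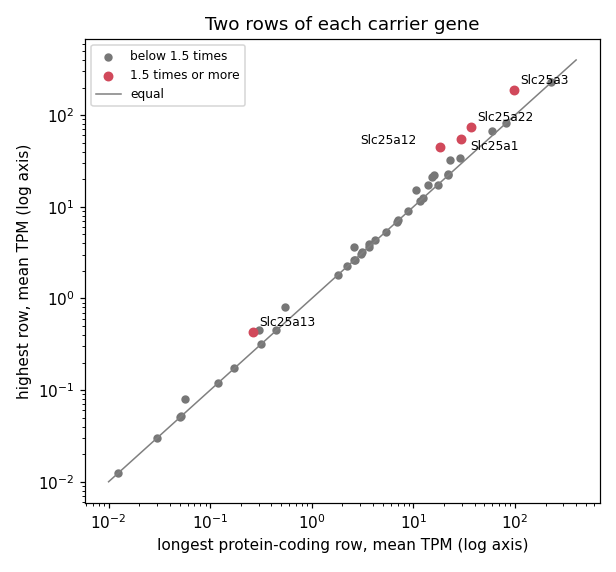
Mean TPM of the highest row of 44 carriers (vertical log axis) against that of its longest protein-coding row (horizontal log axis), with the line of equal values. The 5 named carriers lie at least 1.5 times above the line, and Slc25a12, at 45.3 against 18.3 TPM, lies farthest.

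Reads could be recovered as whole numbers for 34 carriers, with 1 TPM on a transcript of 2 kb worth 103, 86.5 and 91.4 reads in libraries 1, 2 and 3. Among the detected ones of these, the reads of a library ran from 197 for Slc25a29 to 23883 for Slc25a4, and undetected ones had at most 103. The low levels thus rest on few reads, and the coefficient of variation reached 87.0% in Slc25a43. Of the 45 carriers 42 had at least 90% of their 50-base words at no other annotated locus, the exceptions being Slc25a5, Slc25a36 and Slc25a40. In 32 carriers all words were unique in this sense. The share over all protein-coding genes was not computed.

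Carriers that neighbour each other on a chromosome did not share a level. Slc25a41 lies 2056 bases from Slc25a23 on the same strand of chromosome 17, with no coding gene between them, and stood at 0.173 against 59.5 TPM. Slc25a43 lies 18448 bases before Slc25a5 on the same strand of chromosome X, at 0.0124 against 81.6 TPM. Slc25a29 and Slc25a47 lie 15245 bases apart on opposite strands of chromosome 12, at 2.24 and 0.448 TPM. These 3 were all the pairs of carriers within 50 kb of each other.

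Promoter windows were matched for 34 carriers. A window was called CpG-rich where CpG reached 0.6 of the number its base composition would give and G and C made up 50% or more. Of the 25 matched carriers that were detected 16 had such a window, 64% against 73.0% of all detected genes with a window. Of the 9 not detected only Slc25a31 had one, 11.1% against 23.8% of all undetected genes. Both shares lay below their background, but the groups are small and the gaps were not tested. The windows were also picked differently. A carrier has the window nearest its row start, and a background gene, here and for the motifs, its first window by position. In the windows printed above, that of Slc25a23 was CpG-rich with a ratio of 0.645, and Slc25a24, Slc25a12 and Slc25a13 were under the limit at 0.588, 0.553 and 0.540. Slc25a22, the fifth carrier by level, had only 6 CpG, whereas Slc25a40 had 47 at 3.64 TPM.

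**Figure D5:**
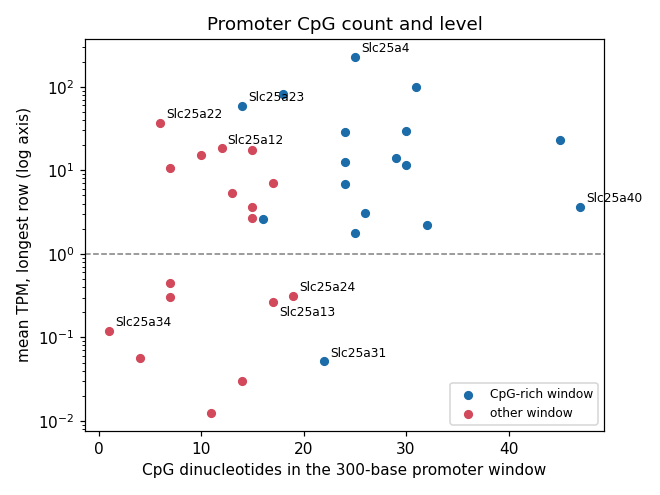
Mean TPM of the longest coding row (vertical log axis) against the number of CpG dinucleotides in the promoter window of 300 bases (horizontal axis) for 34 carriers, by CpG-rich or other window. Below the dashed 1 TPM line 8 of 9 windows are not CpG-rich, and above it 16 of 25 are.

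Motifs were searched on both strands of the windows as exact letters. The CCAAT box (CCAAT) was found in 17 of 34 carriers, 50% against 37.4% of all 32850 windows and 38.0% of the 13912 protein-coding genes in both tables, among them Slc25a4, Slc25a23 and Slc25a13. The NRF1 motif (GCGCATGCG), named for a factor of mitochondrial gene expression, was found in none of the 34, with 1.75% of all windows and 2.88% of the coding genes holding it, and the TATA box (TATAAA) also in none, against 13.6% and 9.34%. The windows of all genes differ in composition, with a median GC content of 52.7% against 59.8% in the carriers and 59.0% in the coding genes. Each of 3 further motifs was found in 1 of 34 carriers, or 2.94%. The ERR half-site (AAGGTCA) was in Slc25a34, against 4.72% of all windows and 3.67% of the coding genes. The CRE (TGACGTCA) was in Slc25a36, against 1.79% and 2.59%. The YY1 motif (AAGATGGCG) was in Slc25a3, against 1.40% and 2.40%. These shares are near those of the coding genes. A match describes letters in a window, not a bound site, and a missing match says only that the letters are not in it.

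Other genes of mitochondrial transport were measured alongside. The family relatives Mtch1 and Mtch2, of the outer membrane, stood at 74.8 ± 3.67 and 45.8 ± 1.87 TPM. The channels of the outer membrane, through which the carriers' substrates pass, were all detected, with Vdac1 at 161 ± 11.2, Vdac2 at 50.8 ± 6.45 and Vdac3 at 23.4 ± 3.82 TPM. Of 7 inner membrane carriers outside the family 6 were detected, among them the sideroflexins Sfxn5 at 27.5 ± 0.684 and Sfxn3 at 24.2 ± 2.12 TPM. The pyruvate carrier subunit Mpc2 stood at 29.9 ± 1.66 TPM and its partner Mpc1 at 1.01 ± 0.136 TPM on the longest and 11.6 TPM on the highest row.

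The calcium uniporter, which lets calcium reach the matrix, had 5 of 6 genes detected on the longest row. Its pore gene Mcu stood at 14.4, 18.6 and 14.9 TPM and the regulator Micu3 at 24.5 ± 2.72 TPM. Mcub was not detected at 0.647 ± 0.0495 TPM on the longest row, but stood at 1.21 TPM on the highest. All 7 genes of the import route of carriers, which leads through the outer membrane receptor to the TIM22 complex, were detected. They ranged from Timm22 at 5.73 ± 0.692 to Tomm70a, the receptor for carrier precursors, at 77.3 ± 7.65 TPM.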

How the data were processed

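RNA of 3 libraries of 1 group was made with a stranded poly-A kit, per the labels' protocols. The authors deposited TPM per transcript row, per the file headers. Per the submitters' processing notes, the tools were Trimmomatic, TopHat, Bowtie and HTSeq and the build mm10. Not given in the sources used here are their versions, the strand setting, the handling of multi-mapped reads and any filter. The deposited table is named for GENCODE release M4.

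Its 84660 rows were matched to GENCODE M21 on the same build, 83017 of them with success. Symbols, types and lengths are those of M21, and coordinates those of the deposited rows, counted from 1. Means, SDs and log2(TPM + 1) were computed from the deposited TPM with Python 3.11.15, pandas 2.3.3 and scipy 1.17.1. Detection was a mean of at least 1 TPM. Reads were recovered from 42156 rows with equal models, where TPM times length divided by a constant of the library was whole within 0.01. The fullest such row of each gene summed to 16.6, 14.5 and 14.5 M reads. The recovery was tested on simulated data. Library pairs differed beyond sampling noise (chi-square per degree of freedom 12.3, 17.0 and 17.9), so all 3 were kept. TPM was deposited for 1 group, so no count model was fitted.

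Members and gene lists were chosen with earlier results of these data known. Members are named with their levels, apart from 1 that is counted but not reported here singly. Library values are given for members at 50 TPM or more, members of the 13 pairs, and members whose highest row is at least 1.5 times the longest, with the same exception. The promoters shown were chosen after the levels were seen, and protein sequences were not used here. Alternatives were the highest or summed rows, each library left out, the median over libraries, another scaling, pseudocount and detection limits, detected members only, and members with unique sequence.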

Additional observations from a re-analysis of the deposited data

How the results depend on the processing

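Each of the 13 pair differences has 1 sign in all 3 libraries, so of the alternatives only the highest row, summed rows and, for 2 pairs, the unique share could turn it. With summed rows that of Slc25a28 and Slc25a37 was -0.89, and the other 12 kept their sign. Slc25a28 has 1 row, so it stayed at 6.82 TPM, whereas the 4 rows of Slc25a37 summed to 13.5 TPM, against 4.20 TPM on the longest. How far reads shared between those rows made up the sum was not tested. The difference of Slc25a5 from Slc25a4 ranged from -1.48 to -0.58, the latter with each level divided by its unique share, an alternative added after seeing the data. The family median of 2.66 became 3.67 with summed rows, 4.72 scaled to nuclear protein-coding genes, 2.44 with a pseudocount of 0.1, 3.67 over detected members only and 2.52 over members with unique sequence. Scaling moved the median of all protein-coding genes by 1.92 and that of the members by 2.06, and 38 members were then detected, beside 71.5% of all. The share of Slc25a4, Slc25a3 and Slc25a5, 50.3%, was 47.7% on the highest row and 35.5% with summed rows, where the 3 highest were Slc25a3, Slc25a22 and Slc25a4 with 48.9%. Of the 45 levels the highest row moved 18 and summed rows 30 by more than the SD. Without library 1 Slc25a2 fell from 0.0504 to 0.0329 TPM, and without library 3 Slc25a34 from 0.120 to 0.0728 TPM. No paired analysis was possible because there is 1 group. Levels below 1 TPM rest on at most 103 reads where reads could be recovered.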
